A study of Mus musculus with 12 samples.

Results

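The comparison described here is that of AT2 cells from uninjured lungs with and without Atg5, that is, 3 Atg5-/- AT2-PBS samples against 3 AT2-PBS samples, 6 of the 12 samples of the series. The members were taken by their sample labels. RNA was sequenced from alveolar type 2 (AT2) cells sorted from C57BL/6 mice as EpCAM+ cells negative for CD31, CD34, CD45, CD24 and Sca-1. Both groups carried floxed Atg5 alleles and were given phosphate-buffered saline (PBS) into the trachea. The AT2-PBS mice were Atg5 f/f without Cre and are labelled wild type, and the Atg5-/- AT2-PBS mice were Nkx2.1Cre;Atg5 f/f. Nkx2.1Cre is active in the lung epithelium from development onward and is not limited to AT2 cells, so airway cells of these mice also lack Atg5, as do other tissues that express Nkx2-1. The study's methods give adult, age-matched and sex-matched mice, and no source used here says how many mice were pooled in a sample or how many days after PBS the Atg5-/- AT2-PBS cells were taken. The p-values therefore measure the spread between these samples only. Values are FPKM, fragment counts scaled to transcript length and to the mapped fragments of the sample, and changes are on the log2(FPKM + 1) scale, on which low genes appear to change less than they do.

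AT2 cells make and store surfactant in lamellar bodies, which are lysosome-related organelles, and they renew themselves and give rise to the flat AT1 cells of the gas exchange surface. Atg5 is part of the complex that attaches the LC3 proteins to the growing autophagosome membrane, and cells without it cannot carry out canonical autophagy. Autophagy delivers cytoplasm and organelles to the lysosome, and it also clears the adaptor Sqstm1 (p62), which binds Keap1, the inhibitor of the transcription factor NRF2 (Nfe2l2).

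AT2 identity was checked first. Lyz2, Sftpa1, Sftpb, Sftpd, Napsa and Slc34a2 were all abundant in the 6 samples, and Lyz2 ranged from 29949 to 48723 FPKM. Sftpc, the defining AT2 surfactant gene, was listed at 0 in each of the 6 samples, which can be a failed estimate, and it was not analysed further. Atg5 itself (chromosome 10, 43988164 to 44084097 of mm9) was at 12.5, 6.01 and 11.5 FPKM in AT2-PBS, and 9.24, 6.72 and 10.1 FPKM in Atg5-/- AT2-PBS. The ranges overlapped, and the log2 change was -0.14 (SE 0.23, adjusted p = 0.781 from limma). FPKM over the whole gene do not resolve single exons, so the genotype rests on the labels. The LC3 homologue Gabarap (563, 569 and 571 against 480, 416 and 666 FPKM in AT2-PBS) and Sqstm1 (392, 512 and 357 against 500, 223 and 303 FPKM) also overlapped between groups. Of 40 tested genes of the autophagy machinery, 0 were called, and their changes ran from -0.42 to 0.59.

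The libraries differed in ways that moved with genotype. Y-linked transcripts, summed over 4 genes, reached 0.1, 15.3 and 14.2 FPKM in AT2-PBS, in replicate order, and 0.4, 0.7 and 0.5 FPKM in Atg5-/- AT2-PBS. So AT2-PBS replicate 1 and all Atg5-/- AT2-PBS samples lacked a male level, although the methods describe sex-matched mice and name male mice for the bleomycin injury experiments. Counts with a Y-linked covariate and with AT2-PBS replicate 1 as the one control sample are given below for all genes and for the main lists. AT2-PBS replicate 1 also stood closer to the Atg5-/- AT2-PBS samples (Pearson r across genes between 0.915 and 0.928) than AT2-PBS replicates 2 and 3 did (0.850 to 0.884). The total FPKM of a sample was 390141 to 417255 in the control group and 425863 to 513380 with Atg5 loss. At least 1 FPKM was reached by 9090 to 9472 genes in AT2-PBS and by 10098 to 10195 genes in Atg5-/- AT2-PBS. Depth in fragments is unknown, and steps in the lowest values put the relative depths of the 6 samples between 1 and 1.05.

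Far more genes rose than fell with Atg5 loss. Of 10675 tested genes, 1057 (9.9%) were called higher and 138 (1.29%) lower, at a limma adjusted p under 0.05 and a change of at least 1.4-fold. These shares are the background for every count of list members below. The median change of all tested genes was 0.0188. Many rises were in genes with little expression. Of the 1057, 479 were under 1 FPKM in every AT2-PBS sample. Such genes were tested only because at least 3 other samples reached 1 FPKM, and they had little room to fall. The median of the mean FPKM was 2.86 for genes called higher and 15.3 for genes called lower. Among genes with a mean under 1 FPKM, 26.9% were called higher and 0.826% lower. The filter and this floor set part of that difference. At 100 FPKM or more, 5.55% were called higher and 3.54% lower. Quantile normalization gave 878 higher and 641 lower, scaling to a common FPKM sum 904 and 251, and scaling to Cdh1, the study's reference gene for qPCR, 1463 and 21. With AT2-PBS replicate 1 as the one control sample, 404 genes were higher and 19 lower, and the lone control was assumed to vary like the other groups. With the Y-linked level as a covariate, the counts were 1016 and 162. With the mean level of the leukocyte list as a covariate, 0 genes were called in limma in either direction, and 260 had an unadjusted p under 0.05. That level separates the 2 groups, so it and genotype can hardly be told apart in these samples.

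**Figure D1:**
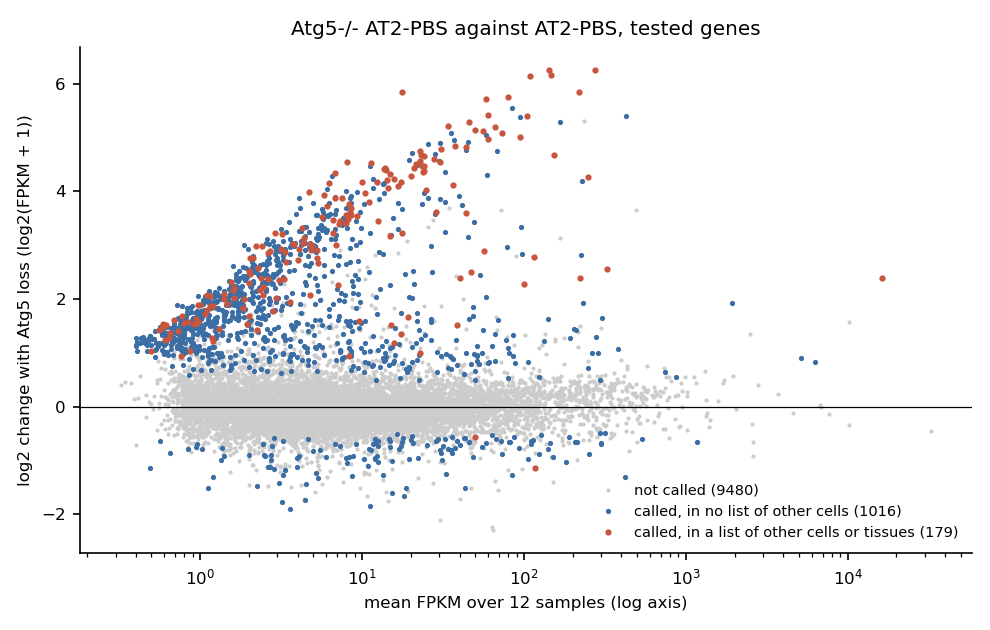
Change with Atg5 loss (log2 scale) against the mean FPKM over 12 samples (log axis), 1 point for each of the 10675 tested genes. Among the called genes, 179 belong to a list of other cells or tissues (red), and these lie mostly among the largest rises, while called falls stay above -2.

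Leukocyte transcripts were mostly higher. Of 29 tested pan-leukocyte genes, 27 rose and 0 fell, with a median change of 2.75. Ptprc, which encodes the CD45 antigen used to sort leukocytes away, was at 0.621, 0.0119 and 0.0646 FPKM in the controls and 8.46, 7.54 and 8.01 FPKM after Atg5 loss. Every Atg5-/- AT2-PBS sample was higher than every AT2-PBS sample, by a change of 2.90 (SE 0.25, adjusted p = 2.83e-05 from limma). All 28 macrophage genes rose, with a median of 3.54. The alveolar macrophage genes Ear10 (60.4, 74.6 and 56.6 against 0.405, 0 and 0 FPKM) and Chil3, a chitinase-like secreted protein (624, 597 and 977 against 25.5, 5.53 and 9.97 FPKM), changed by 5.85 each. Ear2 rose by 5.72, the chemokine Ccl6 by 5.55 and the DAP12 adaptor gene Tyrobp by 5.40. T and NK cell genes (12 of 12 higher, among them Cd2 at 4.55 and Ccl5 at 4.07), neutrophil genes (15 of 20 higher and 1 lower, with S100a9 at 4.67 and S100a8 at 4.26 among the rises) and B cell genes (6 of 9 higher, Cd79a at 3.04) rose as well. Summed over the 30 genes of the list, 1 of them not tested, leukocyte transcripts were 0.0268% to 0.0449% of all FPKM in AT2-PBS and 0.267% to 0.276% in Atg5-/- AT2-PBS. In bulk RNA, more leukocytes in the sorted cells and more leukocyte RNA per cell cannot be told apart.

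**Figure D2:**
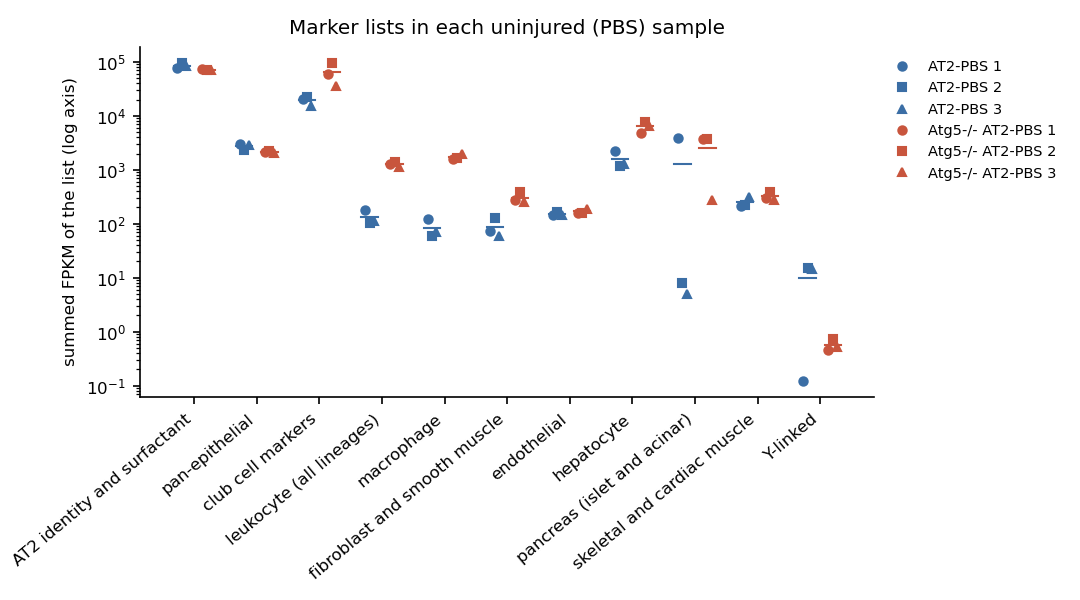
Summed FPKM of marker lists (log axis) in the 3 AT2-PBS and 3 Atg5-/- AT2-PBS samples, with a line at each group mean. AT2 and pan-epithelial sums differ little between groups, leukocyte and macrophage sums are far apart, and the pancreas sum is highest in AT2-PBS replicate 1 and Atg5-/- AT2-PBS replicates 1 and 2.

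Liver transcripts were higher as well, but unevenly among the controls. Of 54 tested hepatocyte genes, 49 rose and 0 fell, with a median of 4.06. Alb, which encodes serum albumin, was at 67.6, 1.14 and 1.60 FPKM in AT2-PBS, and 150, 335 and 255 FPKM in Atg5-/- AT2-PBS. AT2-PBS replicate 1 lay between the other AT2-PBS samples and the Atg5-/- AT2-PBS samples, and with it as the one control sample 1 of the 54 genes was called and the median was 1.86. The 10 largest rises of the whole comparison with separate ranges were 6 hepatocyte genes, namely Mup3 (6.26), the fatty acid binding protein gene Fabp1 (6.26), the apolipoprotein genes Apoa1 (6.16) and Apoa2 (6.15), Serpina3k (5.75) and Mup20 (5.43), and the macrophage genes Chil3, Ear10, Ear2 and Ccl6. The insulin gene Ins2 followed no group. It was at 1976 FPKM in AT2-PBS replicate 1 and at 1949 and 2003 FPKM in Atg5-/- AT2-PBS replicates 1 and 2, and it was listed at 0 in the remaining 3 samples. Without the 3 samples that held Ins2, 624 genes rose and 24 fell. This left 1 Atg5-/- AT2-PBS sample, which was assumed to vary like the other groups.

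Transcripts of several other cell types were also higher. Among 19 fibroblast and smooth muscle genes, 13 rose, including the matrix proteoglycan gene Dcn (57.1, 50.5 and 32.2 against 6.16, 5.91 and 1.72 FPKM) and the collagen gene Col1a1 (3.01). Of 15 muscle genes 7 rose, with Acta1 at 8.03, 17.1 and 26.6 FPKM against 0.79, 0 and 0 FPKM. Of 6 blood cell genes 5 rose, and the hemoglobin gene Hba-a1 reached 455, 303 and 1185 FPKM against 63.3, 303 and 40.8 FPKM. The call of Hba-a1 was lost with the 6 PBS samples alone and without replicate 1 or 3 of AT2-PBS or replicate 3 of Atg5-/- AT2-PBS. That of Col1a1 was lost without replicate 3 of either group. Endothelial genes changed less, with 1 of 11 called. The called gene was Cd34, which encodes the CD34 antigen used to exclude cells in the sort. Cd34 was at 0.542, 0.943 and 0.0385 FPKM in AT2-PBS, and 5.47, 8.001 and 6.04 FPKM in Atg5-/- AT2-PBS. Its change was 2.35 (SE 0.24, adjusted p = 6.01e-05 from limma). Pecam1 (CD31) was not called (0.95, adjusted p = 0.493 from limma). Genes of the Mup, Saa, Ear, Hba, Gsta and Gstm families have near-identical copies among which fragments can be split, so values of single members are uncertain.

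Airway secretory genes were higher, and Scgb1a1 was among the most abundant transcripts of both groups. Scgb1a1, the club cell secretory protein gene and named after its values were seen, was at 11512, 11306 and 4776 FPKM in AT2-PBS, and 48354, 83587 and 22572 FPKM in Atg5-/- AT2-PBS. Of 14 club cell genes 6 rose and 1 fell, and the median was 1.51. The secretoglobins Scgb3a1 (5.19) and Scgb3a2 (2.90), the lectin gene Reg3g (3.62) and Bpifb1 (3.23) were among those that rose. The ranges did not overlap for these 5 genes, as for 1048 of the 1057 genes called higher. Still, Atg5-/- AT2-PBS replicates differed widely among themselves for Scgb1a1. Of 9 ciliated cell genes 5 rose, with Ccdc153 at 9.64, 11.3 and 4.18 FPKM against 1.53, 1.28 and 0.156 FPKM. Without Atg5-/- AT2-PBS replicate 2, 2 of the 14 club cell genes were called higher, and without AT2-PBS replicate 2, 3 were. With AT2-PBS replicate 1 as the one control sample, 0 of the 14 were called in limma, with a median of 1.39. The call of Scgb1a1 itself was lost under quantile normalization and without replicate 1 or 2 of Atg5-/- AT2-PBS or replicate 2 or 3 of AT2-PBS.

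Genes of AT2 cells themselves moved the other way, and by little. Of 27 tested AT2 identity genes, 4 fell and 0 rose, with a median of -0.44. Cd36, a fatty acid receptor, was at 342, 370 and 346 FPKM in AT2-PBS, and 203, 144 and 236 FPKM in Atg5-/- AT2-PBS (change -0.88, SE 0.22, adjusted p = 0.0168 from limma). Abca3, the lipid transporter of the lamellar body, was at 150, 167 and 110 FPKM against 90.9, 77.4 and 105 FPKM. Lpcat1, which remodels surfactant phosphatidylcholine, was at 718, 709 and 611 FPKM against 448, 435 and 448 FPKM. The chemokine gene Cxcl15 changed by -0.65. All 4 had separate ranges, as did 137 of all 138 genes called lower. Of 24 pan-epithelial genes 0 were called, with a median of -0.24, and Epcam was at 146, 130 and 179 FPKM against 110, 109 and 102 FPKM (adjusted p = 0.067 from limma). Of 18 AT1 genes 1 was called, Pdpn (higher by 1.58), while Ager (-0.25) and Aqp5 (-0.59) were not. The call of Pdpn was lost with the common FPKM sum, with the Y-linked covariate, and without replicate 1 or 2 of Atg5-/- AT2-PBS or replicate 2 or 3 of AT2-PBS.

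The fall of AT2 genes depended on the scale. After scaling to Cdh1, which was itself 82.1 to 109 FPKM in Atg5-/- AT2-PBS and 105 to 138 FPKM in AT2-PBS, 0 AT2 genes were called and their median was -0.0609 against 0.34 for all genes. The AT2 median stayed between 0.40 and 0.51 below that of all genes under the 4 scalings. Without replicate 2 of either group, 0 AT2 genes were called lower, and without replicate 1 of either group, 1 was. With the Y-linked covariate 9 were lower. With AT2-PBS replicate 1 as the one control sample, 0 were lower and 1 was higher, as was 1 without AT2-PBS replicate 2. Summed transcripts of the lists for leukocytes, hepatocytes and club cells moved with these falls, and their part in the result was not tested.

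Genes of fatty acid synthesis were among those that fell. Of 22 tested genes 5 fell and 1 rose, with a median of -0.41. Fasn, the fatty acid synthase, was at 134, 153 and 102 FPKM in AT2-PBS, and 56.4, 61.6 and 78.7 FPKM in Atg5-/- AT2-PBS. No sample of one group reached the other, and the change was -0.97 (SE 0.22, adjusted p = 0.0121 from limma). Acly, which makes cytosolic acetyl-CoA from citrate, was at 233, 250 and 162 FPKM against 106, 95.0 and 133 FPKM. The desaturase gene Scd2 changed by -0.79, the acyl-CoA ligase gene Acsl5 by -0.66 and Srebf1, whose product drives transcription of these enzymes, by -0.65. Acaca, the acetyl-CoA carboxylase, was at 7.48, 7.91 and 4.43 FPKM against 4.75, 3.65 and 5.94 FPKM and was not called. Dgat2, which completes triglyceride synthesis, was the gene that rose (3.40, 2.25 and 1.26 against 6.72, 12.3 and 15.4 FPKM in Atg5-/- AT2-PBS). Of 25 cholesterol synthesis genes 0 were called, and the median was -0.12. The 5 falls became 0 without Atg5-/- AT2-PBS replicate 1 or with scaling to Cdh1, 1 without AT2-PBS replicate 2 and 2 without Atg5-/- AT2-PBS replicate 2. With the Y-linked covariate they became 9. With AT2-PBS replicate 1 as the one control sample, 0 of the 22 genes were called in limma in either direction, Dgat2 included, and the median was -0.54.

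Genes of glutathione and quinone detoxification rose together. Of 34 tested targets of NRF2, 12 rose and 0 fell, with a median of 0.62, beside 9.9% of all tested genes called higher. Nqo1, a quinone reductase (chromosome 8, 109912125 to 109927106 of mm9), was at 2.46, 2.70 and 2.26 FPKM in AT2-PBS, and 16.9, 14.98 and 12.6 FPKM in Atg5-/- AT2-PBS. The samples within a group were close and the groups far apart (change 2.18, SE 0.33, adjusted p = 0.000709 from limma). Gsta3, a glutathione transferase, was at 24.5, 23.1 and 17.2 FPKM against 77.9, 92.6 and 69.4 FPKM. Gsto1, a transferase of the omega class, was at 11.7, 6.27 and 8.52 FPKM against 55.9, 91.6 and 115 FPKM. Gpx2, a glutathione peroxidase, was at 16.2, 13.2 and 18.1 FPKM against 61.9, 64.8 and 36.4 FPKM, and the carboxylesterase gene Ces1g rose by 2.02. The 5 genes were also called higher in each of the 4 scalings and without each of the 6 samples. With the mean level of the club cell list as a covariate, Gsta3 kept its call, and Nqo1, Gsto1, Gpx2 and Ces1g lost theirs. Of the 34 targets, 1 was called with that covariate, which itself differs between the groups.

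The ferritin genes, which store iron and are NRF2 targets as well, were the most abundant of the list and are named after their values were seen. Fth1 was at 3266, 2871 and 3562 FPKM in AT2-PBS, and 6354, 5999 and 5806 FPKM in Atg5-/- AT2-PBS. Ftl1 was at 4756, 4003 and 4477 FPKM against 8338, 8056 and 7022 FPKM. Both rose by less than 2-fold, at 0.91 and 0.82. Ftl1 was not called under 3 of the 4 scalings, and neither gene was called when AT2-PBS replicate 2 or the first Atg5-/- AT2-PBS replicate was left out. Ftl1 was not called without Atg5-/- AT2-PBS replicate 2 either. Of the classic targets, Hmox1, Gclc and Gclm were not called, and neither were Nfe2l2 and Keap1. Of 48 genes of KEGG glutathione metabolism, 12 rose and 1 fell. Without AT2-PBS replicate 2, 8 of the 34 targets were called higher, and with AT2-PBS replicate 1 as the one control sample, 3 were. Macrophages and liver also express several of these genes. Transcripts of macrophages, liver and club cells moved with the rise, and their part in it was not tested.

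**Figure D3:**
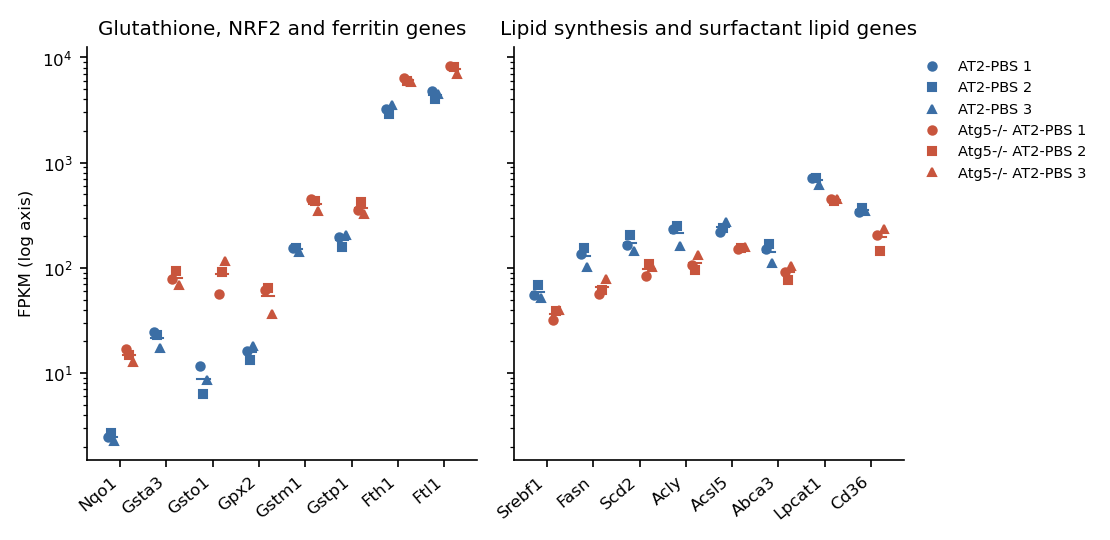
FPKM (log axis) of glutathione, NRF2 and ferritin genes (left) and of lipid synthesis and surfactant lipid genes (right) in the 6 samples, with a line at each group mean. The genes were picked by hand and are only a part of their lists. Hmox1, Gclc and Gclm, which were not called, Acaca, whose ranges overlapped, and Dgat2, which rose, are not shown. Each gene shown on the left is higher, and each on the right lower, in each Atg5-/- AT2-PBS sample than in each AT2-PBS sample.

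Interferon-stimulated genes were higher in Atg5-/- AT2-PBS, but unequally between its samples. Of 30 tested genes 24 rose and 0 fell, with a median of 2.28. Isg15, a ubiquitin-like modifier, was at 0.83, 1.68 and 2.92 FPKM in AT2-PBS, and 151, 202 and 11.4 FPKM in Atg5-/- AT2-PBS. Replicate 3 of Atg5-/- AT2-PBS was the lowest of its group for all 30 genes. The median difference from the AT2-PBS mean was 2.95 in replicate 1, 3.46 in replicate 2 and 0.62 in replicate 3. Still, 24 of the 30 genes were above every AT2-PBS sample in replicate 3. Ifi27l2a, a mitochondrial protein gene, was at 649, 295 and 28.1 FPKM with Atg5 loss against 6.18, 3.09 and 2.203 FPKM, and its call was kept only when replicate 3 of Atg5-/- AT2-PBS was the sample left out. Ifit1, which binds viral RNA, was at 15.9, 37.8 and 1.68 FPKM against 0.462, 0.062 and 0.191 FPKM. Oasl2 rose by 3.79 and Usp18, which removes Isg15 from proteins, by 3.76. The immunoproteasome subunits Psmb8 (268, 221 and 93.8 against 72.2, 44.0 and 58.2 FPKM) and Psmb9 (78.7, 91.4 and 26.5 against 24.5, 14.996 and 15.6 FPKM) were also lowest in replicate 3 of Atg5-/- AT2-PBS. They were among 5 of 42 proteasome genes that rose. Without Atg5-/- AT2-PBS replicate 1, 10 of the 30 genes were called, likewise 10 without replicate 2, and 29 without replicate 3. With AT2-PBS replicate 1 as the one control sample, 1 was.

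**Figure D4:**
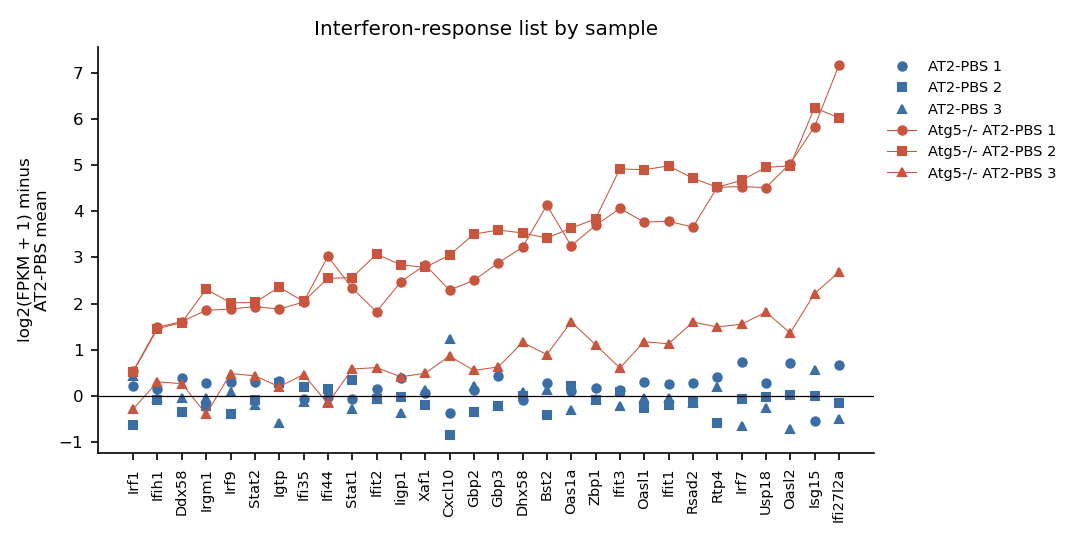
Level of each of the 30 interferon-response genes in each sample, as log2(FPKM + 1) minus the AT2-PBS mean, ordered by change. Atg5-/- AT2-PBS replicates 1 and 2 run together above replicate 3, whose median is 0.62.

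Because these genes and the NRF2 targets moved as groups, their promoters are shown. The sequences are RefSeq promoter windows of GRCm38.p6, another build than the mm9 coordinates above, and each line gives the 150 bases before the start site, 5′ to 3′ on the gene's strand. Capitals mark matches to the core of the interferon-stimulated response element, GAAA repeated after 2 bases, or of the antioxidant response element, TGACNNNGC, on either strand, with overlapping matches merged. Isg15 lies at chr4:156200819-156200968 on the minus strand, Ifit1 at chr19:34640739-34640888 on the plus strand and Gsta3 at chr1:21240435-21240584 on the plus strand.
Isg15: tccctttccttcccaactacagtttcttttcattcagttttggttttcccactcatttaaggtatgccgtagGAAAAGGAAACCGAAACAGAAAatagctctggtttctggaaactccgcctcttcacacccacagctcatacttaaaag
Ifit1: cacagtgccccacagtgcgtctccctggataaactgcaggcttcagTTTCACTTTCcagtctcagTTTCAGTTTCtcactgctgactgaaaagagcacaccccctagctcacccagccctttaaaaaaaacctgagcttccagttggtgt
Gsta3: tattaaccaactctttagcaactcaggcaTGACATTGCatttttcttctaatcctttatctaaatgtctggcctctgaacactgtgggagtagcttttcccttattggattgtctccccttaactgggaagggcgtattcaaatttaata
Of the 24 interferon-response genes called higher, 17 had a window in the table, and 10 of their 20 windows, which run from 250 bases before the start to 50 after it (50%), held the interferon element, against 3.44% of all 32851 windows. All 12 NRF2 targets called higher had a window, and 3 of their 15 (20%) held the antioxidant element, against 12.4% of all windows. Over all tested members, called or not, 14 of 27 interferon windows (51.9%) and 10 of 36 NRF2 windows (27.8%) held their element. The lists hold genes known for these responses, so an excess over all windows does not bear on the changes seen here. A match describes letters only.

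The largest falls were of genes with low or moderate expression. Avpr1a, a vasopressin receptor, was at 14.3, 4.38 and 9.25 FPKM in AT2-PBS, and 1.60, 1.498 and 1.44 FPKM in Atg5-/- AT2-PBS (change -1.91, SE 0.35, adjusted p = 0.00261 from limma). Adamts1, a secreted protease, was at 23.3, 15.1 and 12.5 FPKM against 2.62, 4.76 and 4.38 FPKM. Bcan, a proteoglycan best known from brain, was at 9.36, 10.1 and 10.9 FPKM against 2.54, 3.61 and 3.18 FPKM. Separate ranges were a condition for naming these 3 genes, and Bcan had the smallest error of them (SE 0.19). Ppp1r1a, an inhibitor of protein phosphatase 1, changed by -1.73, Nipa1 by -1.78, the zinc-binding protein gene Tmem163 by -1.67 and Ggcx, the vitamin K-dependent carboxylase, by -1.52. Frat2 (-1.51) and Mtmr11 (-1.48) were at most 1.13 FPKM in every Atg5-/- AT2-PBS sample. Avpr1a, Adamts1, Nipa1, Ppp1r1a, Frat2, Mtmr11 and Bcan were called lower in each of the 4 scalings and without each of the 6 samples. Of all 138 genes called lower, 30 were called without each sample in turn and 21 under each scaling.

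Among well expressed genes outside the marker lists, Chia1, an acidic chitinase of AT2 cells, was at 738, 1182 and 598 FPKM in AT2-PBS, and 428, 334 and 234 FPKM in Atg5-/- AT2-PBS. Spry1, a feedback inhibitor of FGF and EGF receptor signaling, was at 80.8, 35.8 and 148 FPKM against 22.0, 31.4 and 24.3 FPKM, and it was not called without replicate 1 or 3 of either group or after scaling to Cdh1. Phlda1 (-1.27) and Cthrc1 (-1.28) fell in this set as well, as did the cystatin family gene Cst8 (-1.25). The transcription factor gene Irx5 (-1.60) was called with overlapping ranges, since AT2-PBS replicate 1 was at 12.0 FPKM and Atg5-/- AT2-PBS replicate 1 at 12.3 FPKM. The myosin gene Myh7 (-1.11) was at 13.5, 24.9 and 22.9 FPKM against 8.45, 6.20 and 12.2 FPKM. In all, 86 called falls had a mean of at least 10 FPKM, stood in no list of other cells and had a within-group r under 0.8 with the leukocyte and hepatocyte lists, and their median was -0.71. The same rule left 151 of the 1057 rises, with a median of 1.19.

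The largest of those 151 rises was Ly6a (chromosome 15, 74825308 to 74828064 of mm9), which encodes Sca-1, the antigen used to exclude cells in the sort. It was at 14.8, 16.8 and 7.36 FPKM in AT2-PBS, and 636, 754 and 368 FPKM in Atg5-/- AT2-PBS, a change of 5.40 (SE 0.78, adjusted p = 0.000516 from limma). Nkx2-9, a homeobox gene of the family of Nkx2-1, was at 0.243, 0.378 and 0.816 FPKM against 40.4, 34.8 and 35.7 FPKM. Its 3 Atg5-/- AT2-PBS values were close together, and the change was 4.70 (SE 0.35, adjusted p = 1.42e-05 from limma). Plaur, the urokinase receptor, was at 3.16, 1.16 and 0.825 FPKM against 59.8, 52.6 and 55.2 FPKM. The antiviral membrane protein gene Ifitm3 (33.1, 30.0 and 16.4 against 925, 830 and 148 FPKM) and the complement factor gene Cfb (2.11, 0.0572 and 0.123 against 31.1, 31.7 and 19.3 FPKM) rose as well. This rule did not remove every gene of other cells. Spi1, the myeloid transcription factor PU.1, was at 1.10, 0.555 and 1.32 FPKM against 40.2, 34.8 and 33.2 FPKM, and it had a within-group r of 0.78 with the leukocyte list, just under the limit of 0.8. Abcg1, a cholesterol transporter abundant in alveolar macrophages, rose by 4.47 (r of 0.72) and Vim, the intermediate filament of mesenchymal cells and leukocytes, by 4.36 (r of 0.61). For Ly6a, Nkx2-9 and Plaur, r was -0.48, -0.49 and 0.35, a description over 12 samples. Of the leukocyte markers named above, Cd2 (r of 0.44), Ear10 (0.65) and Chil3 (0.68) were also under the limit. Tyrobp (0.93) and Ear2 (0.94) were above it. A low r therefore does not show that a transcript came from epithelial cells.

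Of 23 genes of a list of acute phase proteins and epithelial chemokines, which includes Ccl6, 9 rose. Saa1 was at 48.5, 68.5 and 102 FPKM in Atg5-/- AT2-PBS against 9.68, 0.244 and 0 FPKM, and Saa2 rose by 4.88. Both are made by the liver as well as by lung epithelium, and within groups both varied with the hepatocyte list (r of 0.95 and 0.91). Of 20 genes of the transitional epithelial state 1 rose, Plaur, while Krt8 was at 215, 248 and 163 FPKM against 445, 290 and 373 FPKM and was not called (adjusted p = 0.167 from limma). Of 32 proliferation genes 0 were called.

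In signaling and transport, single genes changed. Wnt7b, a Wnt ligand of the lung epithelium, was at 2.32, 1.99 and 0.65 FPKM against 3.92, 6.79 and 5.86 FPKM in AT2-PBS, and Wnt3a fell by 1.13 on the log2 scale. Tcf7l2, a transcription factor of the same pathway, rose by 1.24. These were the 3 calls among 23 Wnt genes. Of 16 EGF and FGF genes, Spry1 fell and the receptor gene Fgfr1 (2.17, 1.90 and 2.05 against 0.899, 0.91 and 0.91 FPKM) rose. Of 15 ion and water transport genes 3 rose and 1 fell. Sgk1, a kinase that raises sodium channel activity, was at 52.5, 52.1 and 45.0 FPKM against 24.1, 6.32 and 9.74 FPKM, the water channel gene Aqp1 rose by 1.66, and the chloride transporter gene Slc26a9 changed by -0.78. Slc26a9 was not called whichever of the 6 samples was left out, and Sgk1 was called only when AT2-PBS replicate 1 was the sample left out.

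Of 32 genes of the endoplasmic reticulum (ER) and integrated stress response, 2 fell and 1 rose, with a median of -0.098. Hspa5 (BiP) was at 277, 305 and 272 FPKM against 404, 422 and 374 FPKM in AT2-PBS, and Pdia6, a disulfide isomerase, at 166, 187 and 176 FPKM against 247, 279 and 317 FPKM. These were the 2 falls, and both lost their call when scaled to Cdh1. Hspa5 also lost it under quantile normalization, median-ratio scaling and whichever of the 6 samples was left out, and Pdia6 when AT2-PBS replicate 3 or the first Atg5-/- AT2-PBS replicate was left out. Phgdh, the first enzyme of serine synthesis, was the 1 rise, at 15.3, 22.2 and 16.9 FPKM against 4.21, 2.17 and 2.19 FPKM. In carbon metabolism, the pentose phosphate enzyme Taldo1 was at 347, 338 and 275 FPKM against 157, 142 and 183 FPKM, the 1 call among 10 genes. Of 23 glycolysis genes 2 rose, the lactate exporter Slc16a3 (2.99) and the regulator Pfkfb3 (0.78), whose call was kept only when Atg5-/- AT2-PBS replicate 1 was the sample left out. The counts for both pathways lie near the 9.9% of all tested genes called higher. The enolase gene Eno1 was at 101, 107 and 72.8 FPKM against 57.1, 26.9 and 30.7 FPKM, a change of 1.32 that was not called (adjusted p = 0.0844 from limma).

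Broad housekeeping lists moved little. Of 129 ribosomal protein genes 0 were called, although 118 had a change above 0 and the median was 0.32. The median was between 0.26 and 0.36 above that of all genes under the 4 scalings. Of 111 genes of oxidative phosphorylation 2 were called, of 123 spliceosome genes 1, and of 22 genes of mitochondrial fatty acid oxidation 1. Of 113 lysosome genes 21 rose and 0 fell, with a median of 0.11, beside 9.9% of all tested genes called higher. Macrophages also express lysosome genes at high levels. Heat shock genes (15) and autophagy genes (40) had 0 calls each.

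**Figure D5:**
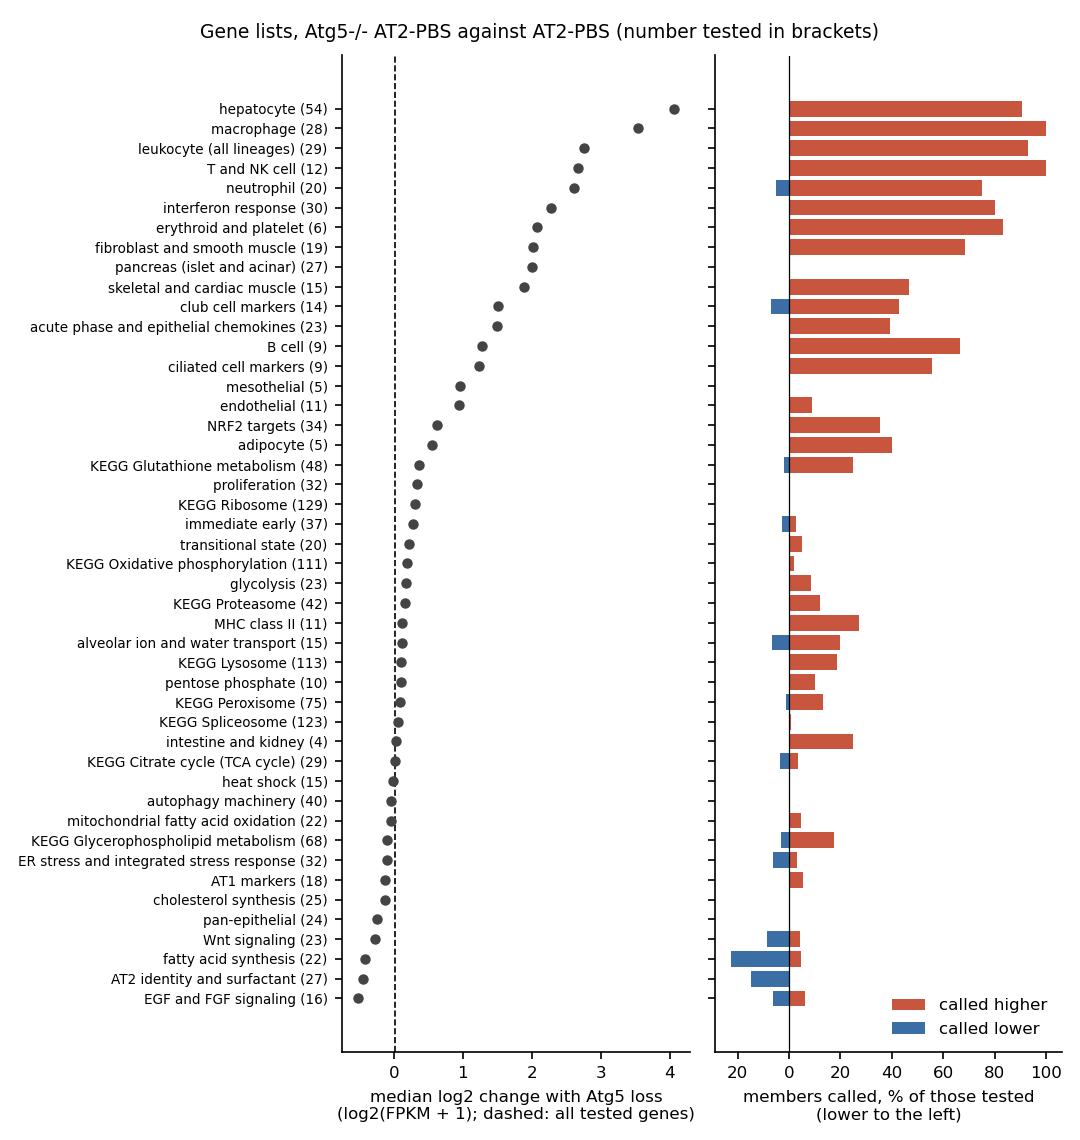
Median log2 change of each gene list except the Y-linked one (left, dashed line at the median of all tested genes, 0.0188) and the percentage of its tested members called higher or lower (right). Hepatocyte, macrophage and leukocyte lists have the highest medians, and fatty acid synthesis, AT2 identity and EGF and FGF signaling the lowest.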

How the data were processed

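The series holds RNA-seq of 4 groups of 3 samples of sorted AT2 cells. The authors made stranded mRNA libraries, trimmed reads with Trimmomatic, aligned them to mm9 (STAR in the methods, HISAT2 in the submitters' processing notes) and deposited FPKM per gene from Cufflinks. The methods name a DESeq normalization, and whether it is in the deposited FPKM is not given in the sources used here. FPKM sums differ between samples. Groups came from the sample titles and descriptions. For AT2-PBS replicate 3, whose description carries a different number, the title was used.

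Of 21878 genes, 10675 reached 1 FPKM in 3 or more of 12 samples and were tested on log2(FPKM + 1) with limma 3.58.1 in R 4.3.3 (lmFit, eBayes with a trend), 12 samples in 1 fit. A call needed a Benjamini-Hochberg adjusted p under 0.05 over all tested genes and a fold change of at least 1.4. The study's criterion, the same fold with an unadjusted p, is an alternative. The members and gene lists were chosen with earlier results of these data known.

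Named genes are Atg5, the 10 largest rises and falls with separate ranges, the 10 largest among called genes with a mean of at least 10 FPKM in no list of other cells and with a within-group r under 0.8 with the leukocyte and hepatocyte lists, Eno1, Acly, Acaca, up to 4 called members of each list or, with fewer than 2 called, its 2 most expressed, and defining markers. Scgb1a1, Acsl5, Srebf1, Fth1, Ftl1, Hmox1, Gclc, Gclm, Nfe2l2, Keap1, Ifit1 and the AT2 markers of the identity check are outside this rule. Of the lists, mesothelial (0 of 5 called), adipocyte (2 of 5 higher), intestine and kidney (1 of 4 higher), pancreas (0 of 27), immediate early (1 of 37 higher, 1 lower), MHC class II (3 of 11 higher), citrate cycle (1 of 29 higher, 1 lower), glycerophospholipid (12 of 68 higher, 2 lower) and peroxisome (10 of 75 higher, 1 lower) are not described further.

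An exact permutation test of 3 against 3 samples was not used, since it cannot give a p under 0.1. In a simulation over 10675 genes, noise was drawn independently for each gene and changes were planted in 200 genes above a minimum mean level. Of these changes, 69% of 2-fold and 97% of 4-fold ones were recovered, and 0 genes were called with no change. Recovery among genes with low expression was not measured. Alternatives were another pseudocount, no filter, 4 scalings, the 6 PBS samples alone, a replicate block, no trend, other call rules, a leukocyte covariate and each sample left out. Covariates for club cell and Y-linked levels, AT2-PBS replicate 1 as the one control, and omission of samples with Ins2 were added after seeing the data. Depth in fragments is unknown. The 27 gene names turned into dates were kept. Coordinates are GENCODE mm9, and figures were drawn with matplotlib 3.10.9.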

Additional observations from a re-analysis of the deposited data

Results flagged for a closer look

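Of the 103 named genes tested, 54 changed differently with Atg5 loss in PBS and after bleomycin (BLM), by the limma interaction of genotype and treatment (adjusted p between 0.000616 and 0.0498). The interaction uses the same PBS samples as the changes above, so it is not independent of them. For 41 of the 54 the change under BLM had the opposite sign, but none of these changes was called under BLM. The smallest of them was 0.04 (Frat2) and the largest -1.45 (Plaur). Cd34 is not counted among the 103, and its change under BLM minus that in PBS was -2.70 (adjusted p = 0.00141 from the limma interaction). Among all tested genes 842 had such a difference, and 751 of these were called in PBS. With Atg5 loss under BLM, limma called 1 gene, and 841 had an unadjusted p under 0.05. The 1 gene was Ear10, which rose by 2.49 under BLM, the same direction as in PBS.

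Each value here is the log2 change under BLM minus that in PBS. Leukocyte genes differed by -2.38 (Ptprc), -4.50 (Tyrobp), -4.34 (Cd52), -3.36 (Ear10), -4.42 (Ear2), -4.74 (Ccl6), -4.29 (Cd2) and -3.91 (Spi1). Liver, blood plasma and stromal genes differed by -6.02 (Fabp1), -6.43 (Mup3), -5.63 (Mup20), -5.86 (Serpina3k), -4.28 (Dcn), -5.11 (Saa1) and -4.80 (Saa2). Interferon-stimulated genes differed by -5.36 (Isg15), -4.45 (Ifit1), -4.77 (Ifitm3), -4.66 (Usp18) and -1.74 (Psmb8). Glutathione, quinone and ferritin genes differed by -4.44 (Gsto1), -3.27 (Nqo1), -2.22 (Gsta3), -2.79 (Ces1g), -2.61 (Gpx2), -1.05 (Ftl1) and -1.14 (Fth1). Surfactant and lipid genes differed by 0.98 (Abca3), 0.77 (Lpcat1), 1.53 (Fasn) and -2.12 (Dgat2). Genes with large falls in PBS differed by 2.91 (Avpr1a), 2.18 (Ppp1r1a), 2.23 (Tmem163), 2.29 (Ggcx), 1.56 (Frat2), 2.64 (Bcan), 2.69 (Irx5), 2.13 (Chia1), 2.60 (Cst8) and 1.73 (Myh7). Genes with large rises in PBS differed by -6.18 (Ly6a), -4.84 (Nkx2-9), -5.94 (Plaur), -4.14 (Abcg1), -4.31 (Vim) and -4.87 (Cfb). Other genes differed by -3.03 (Phgdh), 1.37 (Wnt3a), -3.13 (Sgk1), -2.54 (Eno1), -2.82 (Slc16a3), -1.50 (Taldo1) and -3.27 (Scgb3a2).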

How the results depend on the processing

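Direction held for the counts under each setting that gave calls, but their size did not. Genes called higher and lower numbered 221 and 6 with the club cell covariate, 404 and 19 with AT2-PBS replicate 1 as the one control, 624 and 24 without samples holding Ins2, and 0 and 0 with the leukocyte covariate. Genes called lower numbered 641 under quantile normalization, 251 with a common FPKM sum, 21 scaled to Cdh1, 551 by the study's criterion and 34 at 2-fold. With no filter there were 1278 and 122. The cause was not tested. Leaving out 1 sample gave 851 to 1081 higher and 50 to 150 lower, with the fewest of both without Atg5-/- AT2-PBS replicate 2, and 72 lower without AT2-PBS replicate 2 and 64 without Atg5-/- AT2-PBS replicate 1. The median of all genes was -0.17 under quantile normalization, -0.16 with a common sum and 0.34 scaled to Cdh1, and the share of calls that were higher was 57.8%, 78.3% and 98.6%, against 88.5%.

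Same-numbered samples did not deviate together (r of -0.023, -0.239 and -0.0094). Differently numbered samples had an r between -0.177 and 0.247. These deviations are from means of only 3 samples, so whether any samples shared a batch cannot be told from them. With the replicate block 1035 genes were higher and 134 lower, and samples did not all correlate best with their own number.

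Changes that turned sign with the leukocyte covariate were -0.0911 (Gabarap), -0.70 (Sqstm1), -1.65 (Tyrobp), -1.80 (Cd52), -2.92 (Chil3), -2.97 (Ear2), -1.82 (Ccl6), -4.84 (S100a8), -4.55 (S100a9), -3.73 (Alb), -3.56 (Apoa1), -3.11 (Apoa2), -2.36 (Fabp1), -3.51 (Mup3), -2.45 (Mup20), -3.61 (Serpina3k), -0.0848 (Acta1), 0.0885 (Ager), 0.0993 (Srebf1), 0.30 (Acaca), -0.0003 (Dgat2), 0.21 (Nipa1), 0.71 (Irx5), 0.48 (Cst8), 0.37 (Myh7), 0.19 (Wnt3a), -1.44 (Sgk1), -1.96 (Eno1), -2.18 (Saa1) and -1.31 (Saa2). None of these was called with that covariate, and their errors were large. The SE was 3.28 for Alb, 4.25 for Apoa1, 2.46 for Acta1 and 1.10 for Ear2. Tyrobp and Cd52 belong to the leukocyte list itself. Other changes turned to 0.21 (Atg5) and 0.14 (Ager) scaled to Cdh1, 0.25 (Atg5) without samples holding Ins2, 0.0354 (Atg5) without AT2-PBS replicate 1, 0.014 (Atg5) without Atg5-/- AT2-PBS replicate 2, -0.0174 (Gabarap) under quantile normalization, -0.0697 (Gabarap) with a common FPKM sum, -0.43 (Sqstm1) and -0.68 (Reg3g) with the club cell covariate, -0.27 (Sqstm1) with AT2-PBS replicate 1 as the one control. Over the samples left out in turn the change of Atg5 ran from -0.44 to 0.035. Depth in fragments is unknown, so the precision of low FPKM cannot be given.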
